A study of Mus musculus with 5 samples.

Results

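Transcripts of 5 EGF family ligands (Hbegf, Tgfa, Ereg, Btc and Nrg1) and of 3 ERBB receptors (Egfr, Erbb2 and Erbb3) were followed in mouse B9 carcinoma cells. The 8 genes were taken by symbol, with every probe set of the array annotated to that symbol alone. They have 19 of the 34945 probe sets with a single symbol, and are 8 of the 18193 genes so covered. The cells are labelled cutaneous squamous cell carcinoma with the genotype HRAS-Q61L, which activates RAS upstream of the RAF kinases and which every group carried, the controls included. Cells received 1 µM vemurafenib (PLX4032), a BRAF inhibitor known to activate the MAPK pathway where RAS is mutant, or 1 µM PLX7904, a BRAF inhibitor known as a paradox breaker for its lack of that activation, or the vehicle dimethyl sulfoxide (DMSO), in each case for 17 h. There were 2 vemurafenib arrays, 2 PLX7904 arrays and 1 DMSO array, called biological replicates in the labels without further detail on the cultures, so that a p-value here reflects how far these arrays differ, which may be technical. The labels name 0.2% DMSO for the control, while the stated volume of compound stock amounts to 0.02% of the medium, so that the vehicle level of the treated cultures relative to the control is not settled.

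ERBB receptors are receptor tyrosine kinases that pair on ligand binding and signal through RAS, RAF, MEK and ERK, among other routes. Their ligands are made as membrane-anchored precursors that metalloproteinases release, so that a cell can stimulate itself and its neighbours. In keratinocytes and squamous carcinomas, several of these ligand genes are known targets of ERK signalling, which makes the family a feedforward arm of the pathway, with inhibitors such as Errfi1 acting in the opposite sense.

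Values are signals from the MAS5 algorithm, 1 per probe set and array on a linear scale, and are relative to the whole array. Median signals ranged from 44.1 to 51.9 over the 5 arrays. Fold changes and log2 differences are of the signal plus a pseudocount of 3.34, and the text calls a change only where limma's p-value, adjusted over the 10852 genes whose mean signal reached 47.4, was under 0.05. All 9 keratinocyte and squamous markers were bright, with mean signals from 1628 (the lowest) to 24641 (the highest). Of the melanocyte, fibroblast, endothelial and immune markers only 1 in each list reached 47.4, and the fibroblast genes Col1a1, Col1a2, Dcn and Lum did not. The fibroblast marker that did, Pdgfra, was called higher with vemurafenib by limma. It was 2.89-fold above DMSO (adjusted p = 0.00327) and 1.81-fold above PLX7904 (adjusted p = 0.0166). The summed signal of the 5 fibroblast markers ranged from 355 to 384 with vemurafenib and from 180 to 225 with PLX7904 and was 139 with DMSO, most of it from Pdgfra, and the part of these in the results below was not tested. In bulk RNA, fewer cells with a transcript and less of it per cell cannot be told apart. The bright end of the array read higher with vemurafenib than with DMSO (median log2 difference 0.16 in the brightest 2% of genes) and the dim end lower (-0.18 in the dimmest 25%). With PLX7904 against DMSO these medians were 0.14 and -0.07, so the shift was not particular to vemurafenib. Between vemurafenib and PLX7904 they were 0.02 and -0.12.

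Proximal promoter sequence from RefSeq (build GRCm38.p6) was searched for 4 of the 8 genes, Tgfa, Btc, Egfr and Erbb2. The selection left out a chromosome by hand, so it does not show that the other members lack such sequence. Those of Tgfa and Btc are shown because both ligands were higher with vemurafenib, and that of Egfr as a receptor gene that was not called. Each reads 5′ to 3′ toward the annotated start and ends before it. Tgfa lies at chr6:86194972-86195037 (plus strand, cut at the outermost annotated start), Btc at chr5:91402995-91403244 (minus strand) and Egfr at chr11:16751953-16752202 (plus strand). Capitals mark the motifs found.
Tgfa: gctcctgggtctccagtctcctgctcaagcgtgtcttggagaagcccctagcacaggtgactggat
Btc: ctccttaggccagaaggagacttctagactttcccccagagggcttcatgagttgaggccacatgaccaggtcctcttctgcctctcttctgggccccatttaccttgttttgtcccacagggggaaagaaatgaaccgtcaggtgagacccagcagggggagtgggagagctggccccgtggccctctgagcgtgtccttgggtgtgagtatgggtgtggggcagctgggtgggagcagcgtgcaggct
Egfr: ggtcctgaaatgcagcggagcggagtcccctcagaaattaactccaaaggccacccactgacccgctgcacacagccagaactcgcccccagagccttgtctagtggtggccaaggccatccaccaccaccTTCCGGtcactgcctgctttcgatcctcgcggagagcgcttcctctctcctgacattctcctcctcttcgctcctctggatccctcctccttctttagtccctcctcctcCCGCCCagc
The motifs searched on both strands were AP-1 (TGANTCA), CRE (TGACGTCA), ETS (CCGGAA), SP (GGGCGG), EGR (GCGNGGGCG) and the CArG box, and none of them overlapped another in these stretches. The Egfr stretch held 1 ETS and 1 SP match, and the printed Tgfa and Btc stretches held 0. The 250 bases of Erbb2, another receptor gene that was not called, are not printed and also held 0. The full 250 bases of Tgfa held 2 SP matches beyond the printed part. Over all 32851 promoter windows of 250 bases, 6.75% held AP-1, 1.55% CRE, 12.0% ETS, 32.7% SP, 4.70% EGR and 1.47% a CArG box. These matches describe letters in a short window and are not binding sites.

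The first comparison set vemurafenib against DMSO. Transcripts of 4 of the 5 ligands rose, and none of the 3 receptors passed the test. Of the 8 genes, 4 were called and all 4 were higher (Hbegf, Tgfa, Ereg and Btc), where 10.6% of all genes tested were called and 5.43% were called higher. The median log2 difference was 0.84 over the 5 ligands and 0.21 over the 3 receptors, against -0.05 over all genes.

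**Figure D1:**
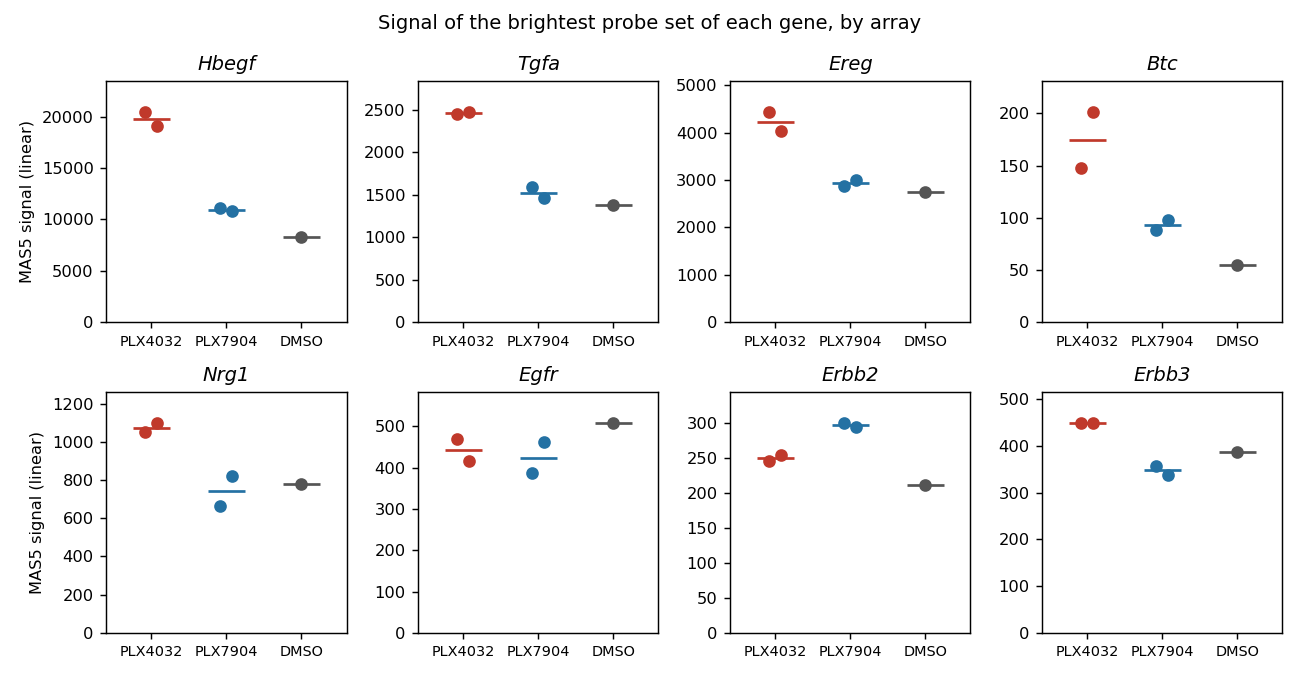
MAS5 signal (linear scale) of the brightest probe set of each of the 8 genes, with 1 point per array and a bar at the group mean, for 2 vemurafenib (PLX4032), 2 PLX7904 and 1 DMSO array. Hbegf, Tgfa, Ereg and Btc were highest on both vemurafenib arrays and lowest on the DMSO array, whereas Egfr was highest on the DMSO array.

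Hbegf, the heparin-binding ligand of EGFR and ERBB4, read 20418 and 19053 with vemurafenib, against 8321 with DMSO. Both vemurafenib arrays lay far above the DMSO array, at 2.37-fold (95% interval 2.13 to 2.64, adjusted p = 6.23e-06). By p-value Hbegf ranked 9 among the 10852 genes of this comparison. Its other probe set, 1418349_at, read 9019 and 7461 with vemurafenib and 2969 with DMSO, which is 2.76-fold (2.33 to 3.27). The probe sets of Hbegf therefore gave the same direction with somewhat different sizes.

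Tgfa, a ligand of EGFR, read 2457 and 2469 with vemurafenib, against 1376 with DMSO. The vemurafenib arrays nearly coincided, and the fold was 1.79 (95% interval 1.53 to 2.09, adjusted p = 0.000808). The remaining Tgfa probe sets did not give a called difference. Probe set 1421942_s_at read 126 and 148 with vemurafenib and 137 with DMSO, so that its groups overlapped. Probe set 1450421_at read 177 and 128 with vemurafenib and 106 with DMSO, and did not pass (log2 0.49, SE 0.30). The average of all Tgfa probe sets gave a log2 difference of 0.44 that did not pass (adjusted p = 0.172).

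Ereg, epiregulin, which binds EGFR and ERBB4, read 4428 and 4038 with vemurafenib, against 2739 with DMSO. It was 1.54-fold higher (95% interval 1.34 to 1.78, adjusted p = 0.00258), from the single probe set it has. Btc, betacellulin, which also binds EGFR and ERBB4, was dim, at 147 and 201 with vemurafenib and 54.5 with DMSO. Its fold of 3.03 was the highest of the 8 and the least precise (1.86 to 4.95, adjusted p = 0.0110). The call ended when genes of any signal were tested (adjusted p = 0.0532) and with the average of its probe sets (log2 1.40, adjusted p = 0.0840). A Btc probe set below the signal filter, 1421161_at, read 53.3 and 64.3 with vemurafenib and 23.7 with DMSO.

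Nrg1, neuregulin-1, is the only one of the 5 that binds ERBB3 and ERBB4 rather than EGFR. It read 1052 and 1099 with vemurafenib and 779 with DMSO, which is 1.38-fold (95% interval 1.11 to 1.71), and it missed the threshold (adjusted p = 0.0665). With PLX7904 replicate 1 or 2 left out it passed with the same fold, since those arrays bear only on the estimate of spread. It also passed after cyclic loess (log2 0.52, adjusted p = 0.0468) and median centring (log2 0.61, adjusted p = 0.00913).

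Among the receptors, Egfr, the receptor for most of these ligands, read 470 and 416 with vemurafenib and 508 with DMSO from its brightest probe set (log2 -0.20, SE 0.16, adjusted p = 0.490). Erbb2, which has no known ligand and pairs with the other receptors, read 246 and 253 with vemurafenib and 211 with DMSO (log2 0.24, SE 0.18, adjusted p = 0.435). Erbb3, a receptor with little kinase activity of its own, read 449 on both vemurafenib arrays and 388 on the DMSO array (log2 0.21, SE 0.15, adjusted p = 0.412). Egfr lay below the DMSO array and the other receptors above it on both vemurafenib arrays, and the 95% intervals of the differences ran from 0.679-fold to 1.12-fold for Egfr, from 0.900-fold to 1.55-fold for Erbb2 and from 0.921-fold to 1.45-fold for Erbb3.

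All 8 genes had vemurafenib arrays on one side of the DMSO array, 7 above and 1 (Egfr) below, but so had 81.9% of all genes tested, which with 1 DMSO array says little. Without limma's trend of variance with intensity 0 of the 8 passed, with Hbegf at adjusted p = 0.0531, Tgfa at 0.0737, Btc at 0.0789 and Ereg at 0.105.

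**Figure D2:**
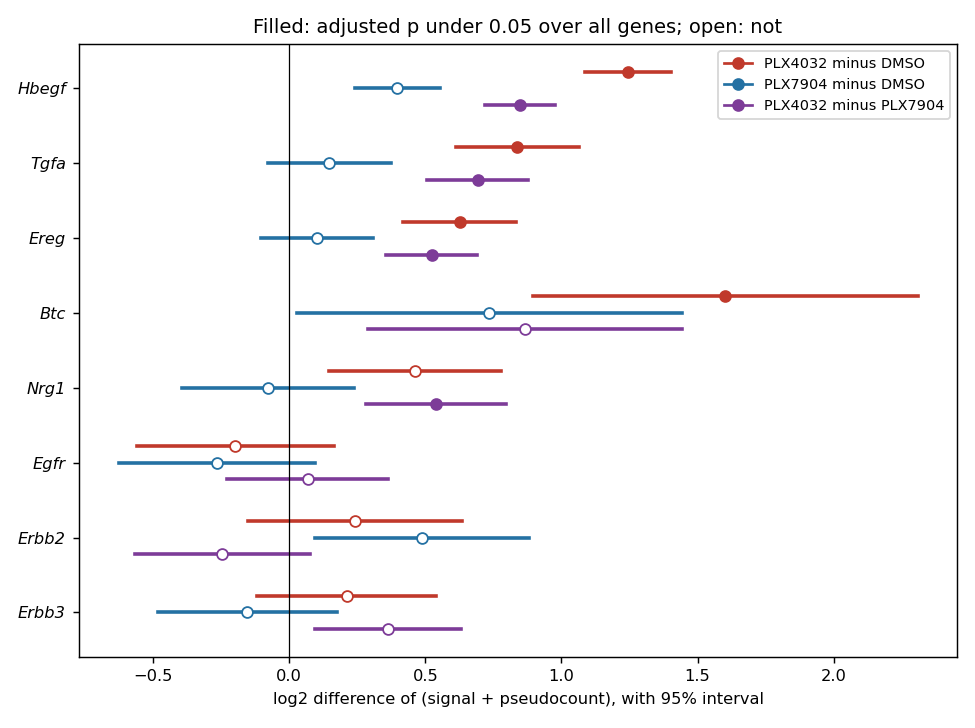
Log2 difference of the signal plus pseudocount with its 95% interval for each gene in the 3 comparisons, filled where limma's p adjusted over all genes was under 0.05. For Hbegf, Tgfa and Ereg the vemurafenib differences from DMSO (1.24, 0.84 and 0.63) and from PLX7904 (0.85, 0.69 and 0.52) were both filled, and no difference between PLX7904 and DMSO was.

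The second comparison set PLX7904 against DMSO. With limma, 0 of the 8 genes were called, and 0% of all genes tested were called, although 722 genes and 3 of the 8 (Hbegf, Btc and Erbb2) had an unadjusted p under 0.05. Hbegf read 11123 and 10799 with PLX7904, against 8321 with DMSO, a fold of 1.32 (95% interval 1.18 to 1.47, adjusted p = 0.216). By p-value it ranked 10 among all genes here. Its other probe set, 1418349_at, read 3494 and 3437 with PLX7904 and 2969 with DMSO. That is 1.17-fold (0.984 to 1.38, adjusted p = 0.853 over all probe sets), an interval that included no difference. With vemurafenib replicate 1 or 2 left out, Hbegf had the same log2 difference of 0.40 and passed. The spread in those fits came from the PLX7904 pair alone, so they add little.

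Tgfa read 1589 and 1460 with PLX7904 and 1376 with DMSO (1.11-fold, 95% interval 0.946 to 1.29). Ereg read 2883 and 3002 with PLX7904 and 2739 with DMSO (1.07-fold, 0.931 to 1.24). Both were above DMSO on each array, with intervals that included no difference. Btc read 88.4 and 97.4 with PLX7904 and 54.5 with DMSO (1.66-fold, 1.02 to 2.72, adjusted p = 0.727), while its probe set below the filter read 14.5 and 20.0 with PLX7904 and 23.7 with DMSO, in the other direction. Nrg1, at 664 and 820 with PLX7904 and 779 with DMSO, overlapped (0.947-fold, 0.762 to 1.18).

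Erbb2 was the receptor with the largest difference here, at 300 and 294 with PLX7904 and 211 with DMSO (1.40-fold, 95% interval 1.07 to 1.84, adjusted p = 0.612). Egfr read 386 and 461 with PLX7904 and 508 with DMSO (0.832-fold, 0.647 to 1.07), and Erbb3 358 and 338 with PLX7904 and 388 with DMSO (0.899-fold, 0.716 to 1.13). Arrays of the 2 groups did not overlap for 7 of the 8 genes, against 66.4% of all genes tested. The comparison uses the same lone DMSO array as the first, and its missed thresholds do not show that PLX7904 left these genes at the DMSO level.

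The third comparison set vemurafenib against PLX7904 at the same dose and time, the 1 pair of compounds in the study, and has replicates on both sides. All 5 ligands read higher with vemurafenib on each array. Of the 8 genes, 4 were called and all 4 were higher (Hbegf, Tgfa, Ereg and Nrg1), where 13.3% of all genes were called and 6.43% were called higher. The median log2 difference was 0.69 over the ligands and 0.07 over the receptors, against -0.04 over all genes.

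The Hbegf signals, 20418 and 19053 with vemurafenib against 11123 and 10799 with PLX7904, differed 1.80-fold (95% interval 1.65 to 1.97, adjusted p = 2.12e-05). Its other probe set gave 9019 and 7461 with vemurafenib against 3494 and 3437 with PLX7904, which is 2.37-fold (2.06 to 2.72). Tgfa was 1.62-fold higher (1.42 to 1.84, adjusted p = 0.000622) and Ereg 1.44-fold (1.28 to 1.61, adjusted p = 0.00172). With its probe sets averaged, Tgfa did not pass (log2 0.52, adjusted p = 0.0563). For these 3 ligands the gap between the compounds exceeded the gap between the replicates of either.

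Nrg1, which read 1052 and 1099 with vemurafenib against 664 and 820 with PLX7904, was 1.45-fold higher (95% interval 1.22 to 1.74, adjusted p = 0.0126). The PLX7904 replicates of Nrg1 lay further apart than the vemurafenib ones, on either side of the DMSO value of 779. Without PLX7904 replicate 1 the log2 difference was 0.39, and the only Nrg1 probe set did not pass over all probe sets. By gene Nrg1 passed under 15 of 16 alternatives, the exception being the fit without the intensity trend. Btc, at 147 and 201 with vemurafenib against 88.4 and 97.4 with PLX7904, was 1.82-fold higher (1.22 to 2.72) and just missed the threshold (adjusted p = 0.0531). It passed under 8 of 15 alternatives, among them quantile normalization (log2 0.95, adjusted p = 0.0369). The log2 difference was 1.09 without vemurafenib replicate 1 and 0.65 without vemurafenib replicate 2.

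No receptor was called. Erbb3 came nearest, at 449 on both vemurafenib arrays against 358 and 338 with PLX7904 (1.29-fold, 95% interval 1.07 to 1.55, adjusted p = 0.0768). It passed after median centring (log2 0.51, adjusted p = 0.0241) and cyclic loess (log2 0.41, adjusted p = 0.0499). Erbb2 ran the other way, at 246 and 253 with vemurafenib against 300 and 294 with PLX7904 (0.843-fold, 0.675 to 1.05, adjusted p = 0.312), without overlap of its arrays. Egfr arrays overlapped, at 470 and 416 with vemurafenib against 386 and 461 with PLX7904 (1.05-fold, 0.854 to 1.29).

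Arrays of the compounds did not overlap for 7 of the 8 genes, against 56% of all genes tested. Without the intensity trend 0 of the 8 passed, with Hbegf at adjusted p = 0.0591, Tgfa at 0.0642, Ereg at 0.0797 and Nrg1 at 0.123.

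Each probe set was also tested on its own, over the 19755 single-symbol probe sets whose mean signal reached 47.4. Of the 19 probe sets of the 8 genes 14 reached that signal. Between vemurafenib and DMSO 5 of the 14 were called, all higher (both of Hbegf and 1 each of Tgfa, Ereg and Btc), where 7.15% of all probe sets were called and 3.74% were called higher. Between PLX7904 and DMSO 0 were called, as for 0% of all. Between vemurafenib and PLX7904 5 were called, all higher (both of Hbegf and 1 each of Tgfa, Ereg and Nrg1), where 9.17% were called and 4.63% were called higher.

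**Figure D3:**
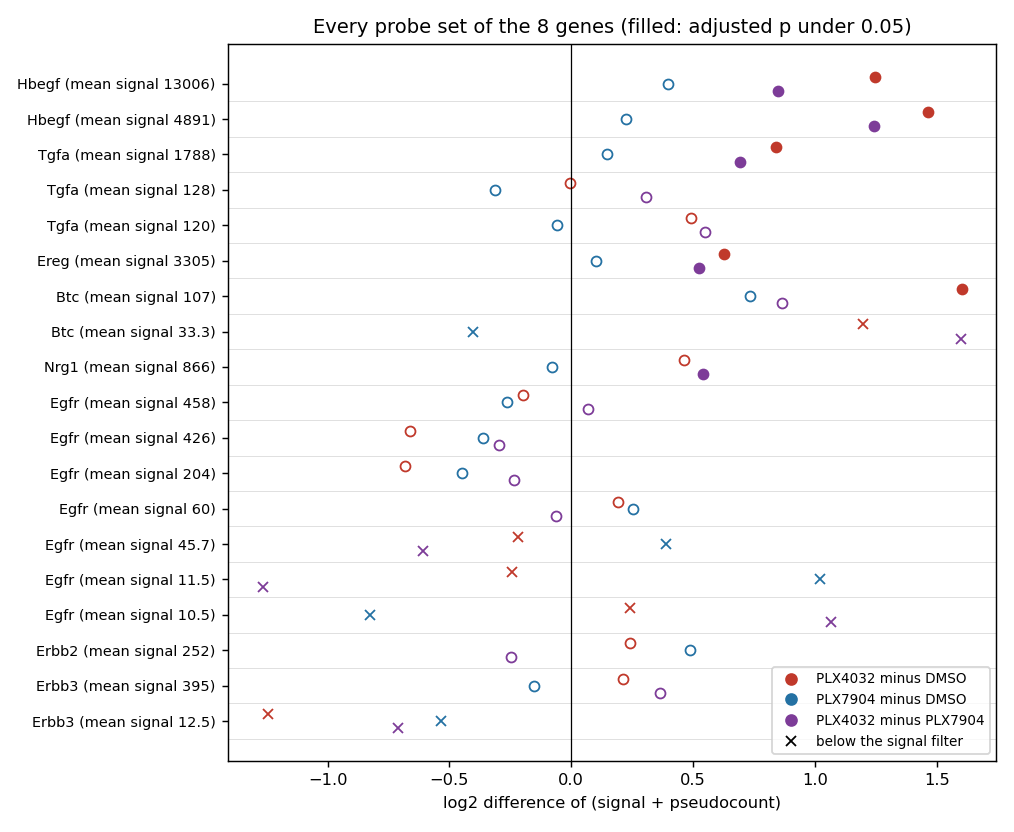
Log2 differences of all 19 probe sets of the 8 genes in the 3 comparisons, ordered by gene and by mean signal. Circles are probe sets that reached a mean signal of 47.4, filled where adjusted p was under 0.05 over all probe sets, and crosses are dimmer ones. Both Hbegf probe sets are filled in the comparisons with vemurafenib, and the Egfr probe sets lie on both sides of 0.

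Egfr had the most probe sets, 7 in all and 4 above the filter. Beside the one described above, 1435888_at read 293 and 382 with vemurafenib, 401 and 422 with PLX7904 and 530 with DMSO. Its log2 difference between vemurafenib and DMSO was -0.66 (SE 0.19, adjusted p = 0.0632 over all probe sets). The vemurafenib arrays lay apart here, and whether it passed as lower differed between them. Without vemurafenib replicate 2 the log2 difference was -0.85, and without vemurafenib replicate 1 it was -0.47, with spread from the PLX7904 pair alone. With all arrays it passed as lower when the filter was set at the 75th percentile (adjusted p = 0.0463) and without suffixed probe sets (adjusted p = 0.0392). Probe set 1460420_a_at read 176 and 146 with vemurafenib, 165 and 216 with PLX7904 and 259 with DMSO, a log2 difference between vemurafenib and DMSO of -0.68 (SE 0.24, adjusted p = 0.130). The remaining one, 1451530_at, read 53.8 and 70.1 with vemurafenib, 59.1 and 70.0 with PLX7904 and 53.4 with DMSO, near the filter and above DMSO on each treated array. Thus 3 of the 4 tested Egfr probe sets were lower with vemurafenib than with DMSO without passing the test as fitted. The same 3 were lower on average with PLX7904 than with DMSO, at log2 differences of -0.27, -0.36 and -0.45, a comparison that shares the DMSO array.

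Genes around the receptors were taken from lists by role. Of the 6 other EGF family ligands, 5 had a single-symbol probe set and Areg (amphiregulin) was not analysed here. Nrg2, the only one above the filter, read 200 and 370 with vemurafenib, 303 and 139 with PLX7904 and 183 with DMSO, so that its vemurafenib arrays lay above the DMSO array and its PLX7904 arrays overlapped both other groups. Egf lay between 38.7 and 50.4 and Epgn (epigen) between 3.27 and 48.8 over the 5 arrays, below the filter, as did Nrg3, Nrg4 and the receptor Erbb4. Such dim signals carry no detection call here and do not show absence.

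Membrane proteases and their helpers, which release the ligands, gave no call: 0 of 10 tested genes of the 11 listed passed in any of the 3 comparisons by limma. Over all genes 10.6% were called between vemurafenib and DMSO, 0% between PLX7904 and DMSO and 13.3% between the compounds, so that 0 of 10 is near the background. The median log2 difference was 0.02 between vemurafenib and DMSO, -0.03 between PLX7904 and DMSO and -0.00 between vemurafenib and PLX7904. Adam17, the main releasing protease for Hbegf, Tgfa and Ereg, read 1520 and 1411 with vemurafenib, 1533 and 1847 with PLX7904 and 1695 with DMSO. It differed between vemurafenib and DMSO by -0.21 on the log2 scale (SE 0.13, adjusted p = 0.329). The widest differences there were those of Rhbdf2 (iRhom2, which carries ADAM17 to the surface) at 0.44 (adjusted p = 0.190), Adam15 at -0.27 (adjusted p = 0.358) and Frmd8, which stabilises iRhoms, at -0.27 (adjusted p = 0.322).

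Among 19 adaptors and proximal effectors of the receptors, 2 were called higher with vemurafenib than with DMSO and 0 lower, at a median log2 difference of 0.05, where 5.43% of all genes were called higher and 10.6% in either direction. Gab2, a docking protein for PI3K and SHP2, read 420 and 414 with vemurafenib, 292 and 279 with PLX7904 and 250 with DMSO. It was 1.66-fold above DMSO (95% interval 1.30 to 2.12, adjusted p = 0.0172) and 1.45-fold above PLX7904 (1.19 to 1.78, adjusted p = 0.0219). Another Gab2 probe set, used when sets with a suffix for shared sequence were dropped, turned these round to log2 differences of -0.69 and -0.14, neither of which passed. Without any 1 of the treated arrays the difference from PLX7904 did not pass, at adjusted p from 0.0505 to 0.0874.

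Src, a tyrosine kinase that works with EGFR, read 928 and 905 with vemurafenib, 639 and 699 with PLX7904 and 661 with DMSO. It was 1.38-fold above DMSO (1.14 to 1.68, adjusted p = 0.0388) and 1.37-fold above PLX7904 (1.17 to 1.60, adjusted p = 0.0155). Src passed under 9 of 16 alternatives against DMSO and under 11 of 16 against PLX7904. The call against DMSO ended without vemurafenib replicate 1 (adjusted p = 0.116) or 2 (0.0722), and that against PLX7904 without vemurafenib replicate 1 (0.0686) or PLX7904 replicate 1 (0.0574). Between vemurafenib and PLX7904 the list had 4 called higher and 0 lower, at a median log2 difference of 0.09, where 6.43% of all genes were called higher and 13.3% in either direction. The others were Grb2, which links receptors to SOS and RAS, at 1.41-fold (1.22 to 1.62, adjusted p = 0.00641), and the adaptor Crk at 1.20-fold (1.08 to 1.33, adjusted p = 0.0318). Grb2 passed under 13 of 15 alternatives, with a log2 difference down to 0.29. Crk did not pass without vemurafenib replicate 1 (adjusted p = 0.175), vemurafenib replicate 2 (0.137) or PLX7904 replicate 1 (0.0738). Pik3r1, a regulatory subunit of PI3K (log2 -0.31), Gab1, a relative of Gab2 (-0.31), and Pik3ca, a catalytic subunit of PI3K (0.24), had the widest differences between vemurafenib and DMSO among the genes of the list called in none of the 3 comparisons. Between PLX7904 and DMSO 0 of the 19 were called, with a median of -0.01.

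Among 19 genes that restrain or internalise the receptors, 3 were called higher with vemurafenib than with DMSO and 0 lower, at a median log2 difference of 0.05, beside the same 5.43% of all genes called higher and 10.6% in either direction. Errfi1 (MIG6), which binds ERBB kinase domains and blocks them, read 9689 and 9204 with vemurafenib, 4138 and 4001 with PLX7904 and 3172 with DMSO. It was 2.98-fold above DMSO (95% interval 2.63 to 3.37, adjusted p = 5.32e-06) and 2.32-fold above PLX7904 (2.10 to 2.57, adjusted p = 3.93e-06), and passed under all 16 alternatives, with an adjusted p of at most 0.0439. The PLX7904 arrays of Errfi1 lay above DMSO too, by 0.36 on the log2 scale, which did not pass (adjusted p = 0.331).

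Ptpn1 (PTP1B), a phosphatase that acts on internalised receptors, read 4945 and 4775 with vemurafenib, 3371 and 2939 with PLX7904 and 2898 with DMSO. It was 1.68-fold above DMSO (1.44 to 1.95, adjusted p = 0.00141) and 1.54-fold above PLX7904 (1.36 to 1.75, adjusted p = 0.000895). Without probe sets that carry a suffix the log2 difference was 0.21 from DMSO (adjusted p = 0.401) and 0.15 from PLX7904 (adjusted p = 0.446), and neither passed. Sh3kbp1 (CIN85), an adaptor between CBL and the endocytic machinery, read 5129 and 5380 with vemurafenib, 4388 and 3688 with PLX7904 and 3721 with DMSO. It was 1.41-fold above DMSO (1.20 to 1.66, adjusted p = 0.0153) and 1.31-fold above PLX7904 (1.14 to 1.49, adjusted p = 0.0162). With its probe sets averaged neither passed (log2 0.24 from DMSO, adjusted p = 0.365, and 0.22 from PLX7904, adjusted p = 0.290), and the difference from PLX7904 did not pass without PLX7904 replicate 2 (adjusted p = 0.0508).

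Between vemurafenib and PLX7904 this list had 4 called higher and 0 lower, at a median log2 difference of 0.02, where 6.43% of all genes were called higher and 13.3% in either direction. The additional gene was Socs5, a SOCS family protein, at 1.34-fold (1.12 to 1.60, adjusted p = 0.0387). It passed under 11 of 16 alternatives, and not without PLX7904 replicate 1. The widest uncalled differences between vemurafenib and DMSO were those of the receptor phosphatase Ptprj at -0.78 (adjusted p = 0.188), the endosomal sorting gene Stam at 0.36 (adjusted p = 0.0518) and the ubiquitin ligase Cblb at 0.31 (adjusted p = 0.230). Between PLX7904 and DMSO 0 were called, with a median of 0.07.

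**Figure D4:**
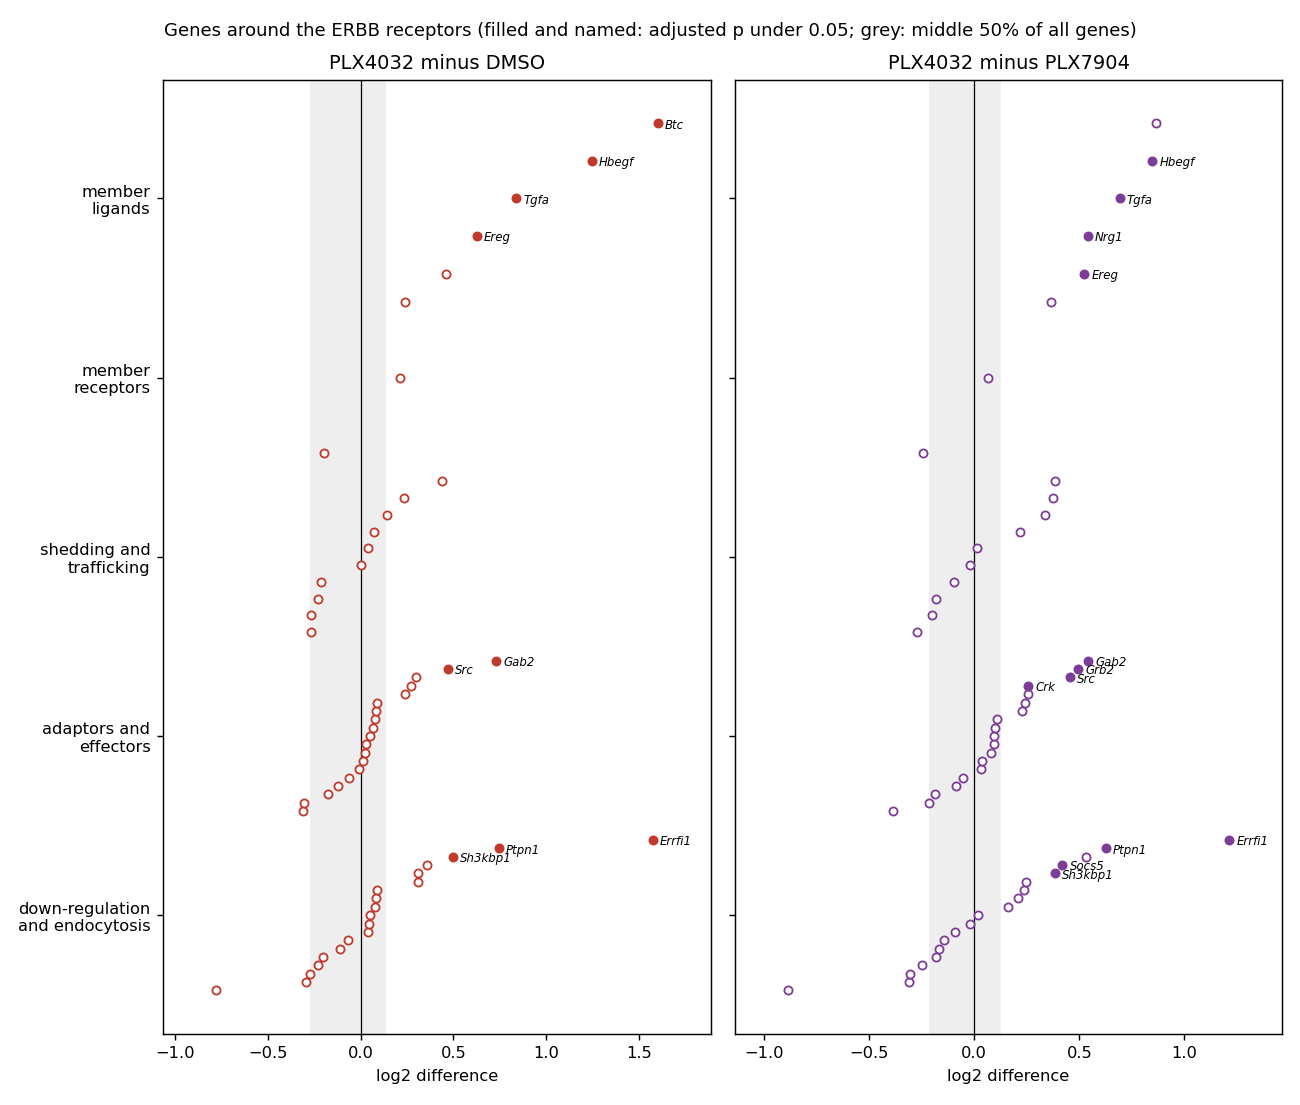
Log2 differences of vemurafenib from DMSO (left) and from PLX7904 (right) for the 5 ligands, the 3 receptors and the genes of the shedding, adaptor and down-regulation lists, 1 point per gene, filled and named where adjusted p was under 0.05 over all genes, with the middle 50% of all genes in grey. Hbegf and Errfi1 lie far to the right in both panels, at 1.24 and 1.57 from DMSO and at 0.85 and 1.21 from PLX7904, and no gene to the left of 0 is filled.

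The genes whose profile over the 5 arrays was nearest to each called ligand were found by the root mean square difference of log2 signals, each centred on its own mean. For Hbegf these were Il23a (0.0387), Kctd4 (0.0808) and Plaur (0.0813). For Tgfa they were Akr1b8 (0.0357), Jam2 (0.0412) and Nrarp (0.0456). For Ereg they were Nkd2 (0.0256), Btbd3 (0.0355) and Fggy (0.0365), and for the noisier Btc they were Spry2 (0.103), Sema6d (0.150) and Sgk2 (0.164). With 5 arrays in 3 groups, such nearness describes like sizes of the group differences and no more.

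**Figure D5:**
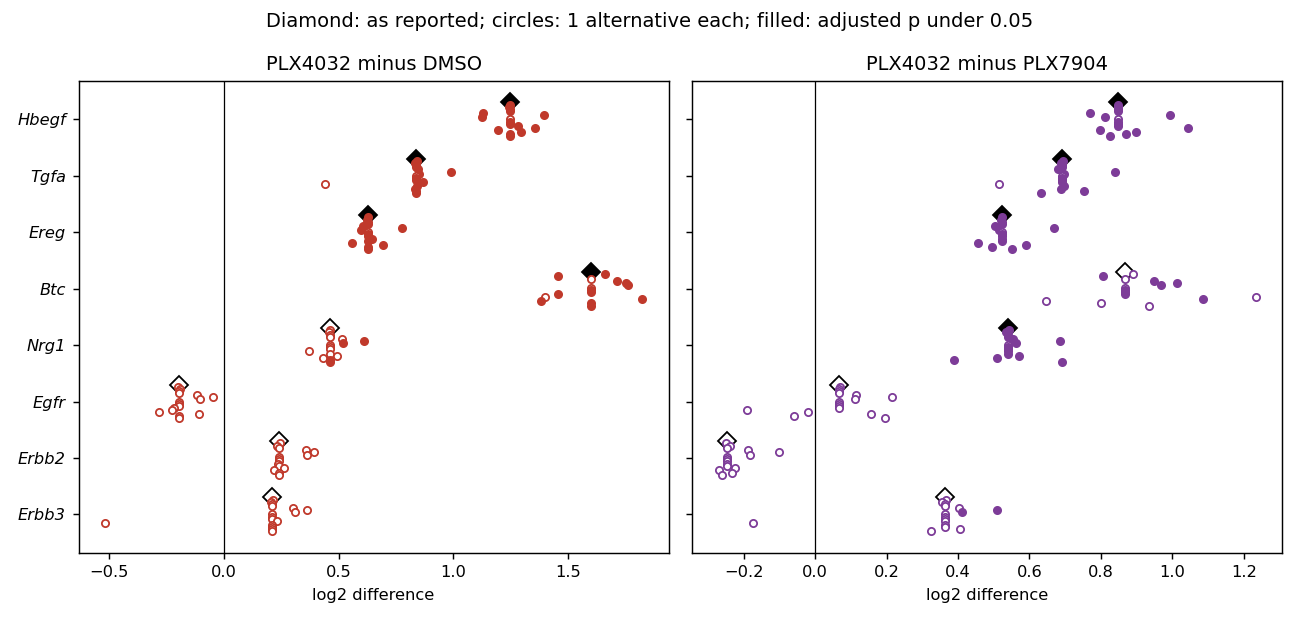
Log2 differences of vemurafenib from DMSO (left) and from PLX7904 (right) for the 8 genes under each alternative processing, with the reported value as a diamond and each alternative as a circle, filled where adjusted p was under 0.05. Hbegf ranged from 1.13 to 1.39 and Ereg from 0.56 to 0.78 against DMSO, and Tgfa from 0.44 to 0.99, its low end being the average of its probe sets.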

How the data were processed

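Total RNA of the 5 samples was measured on Affymetrix 3′ expression arrays. The deposited table holds 1 intensity per probe set and array on a linear scale, made with MAS5 per the submitters' processing notes, with a trimmed mean of 500 over the middle 96% of values on each array. Scanner files, detection calls and batch labels were not used here. Gene symbols came from GEO's platform annotation, and 932 probe sets with several symbols and the control probe sets were left out. Of the table's value columns 0 were left unassigned to a sample.

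Signals were taken as log2(signal + 3.34), the pseudocount being the 10th percentile. Each gene was represented by its brightest probe set, and a gene was tested where its mean over the 3 group means reached 47.4, the median signal of the table. The linear models of limma 3.58.1 (R 4.3.3), moderated by eBayes with trend on, were fitted over all 5 arrays without a replicate block, with 3 contrasts, two-sided, and Benjamini-Hochberg adjustment over all genes, called under 0.05. The same fit was made over single probe sets. Residual degrees of freedom were 2 and prior ones 8.27, and the lone DMSO array takes its spread from the treated arrays, whose number limits the precision: the typical 95% interval was ± 0.31 on the log2 scale against DMSO and ± 0.25 between the compounds. Both comparisons with DMSO share that array, and both with vemurafenib share its arrays, so they are not independent. The fit was also run on data simulated from its own gene means and spreads. Such data check the calculation and cannot test the spread taken for the lone DMSO array. Figures were drawn with matplotlib 3.10.9.

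Alternatives were other pseudocounts, filters, normalizations, probe-set choices, fits and thresholds, a replicate block and leaving out each treated array. The alternatives for pathway genes were added after seeing the data. The 8 genes and the lists were chosen with earlier results of these data known. Named beside the 8 were the list genes called in any comparison, up to 3 uncalled genes a list with the widest difference between vemurafenib and DMSO, Areg, Epgn, Egf, Erbb4, Adam17 and Errfi1, and the 3 nearest profiles of each called gene.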

Additional observations from a re-analysis of the deposited data

How the results depend on the processing

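Counts of the 8 genes called were 4 with vemurafenib against DMSO, 0 with PLX7904 against DMSO and 4 with vemurafenib against PLX7904, and the counts of the 14 probe sets were 5, 0 and 5. Without the intensity trend all of these were 0, and with each gene's probe sets averaged the first was 2. Leaving out each treated array gave 4 to 5, 0 to 1 and 4 to 5 genes, and 5 to 6, 0 to 1 and 4 to 6 probe sets. The labels do not say whether same-numbered replicates were handled together. The correlation of their deviations (-0.0071 across genes, over 2 pairs) cannot settle it. A replicate block gave 4, 0 and 5 genes and 6, 0 and 6 probe sets. The added one against DMSO was Egfr 1435888_at, called lower (-0.77, adjusted p = 0.0190). Over all probe sets the block gave 1895 calls between vemurafenib and DMSO, against 1413 without it. Signs turned for Tgfa with PLX7904 against DMSO (-0.0749, mean of probe sets), for Nrg1 there (0.0737 without PLX7904 replicate 1, and -0.23 without replicate 2), for Egfr between the compounds (-0.19 with the mean of probe sets, -0.0196 without vemurafenib replicate 1 and -0.0596 without PLX7904 replicate 1, with 0.20 without PLX7904 replicate 2 and 0.21 with median centring at the other end), for Erbb3 with the mean of probe sets (-0.52 against DMSO and -0.17 between the compounds), for Gab2 without suffixed probe sets (-0.69 and -0.14) and for Crk with the mean of probe sets (-0.0319). The Erbb3 mean takes in 1452482_at, below the signal filter (mean signal 12.5), at -1.24 against DMSO and -0.71 between the compounds. Its brighter probe set was at 0.21 and 0.36. For PLX7904 against DMSO the Tgfa mean takes in 1421942_s_at (-0.31) and 1450421_at (-0.06) beside its brightest probe set (0.15). Why probe sets of a gene differ, and the cause of the other turned signs, was not tested. For the 8 genes one by one, direction and side of the threshold held in 114 values of vemurafenib against DMSO, with 4 calls gained, 7 lost and 1 sign turned. They held in 122 values of PLX7904 against DMSO, with 2 calls gained, 0 lost and 2 signs turned, and in 107 between the compounds, with 10 gained, 5 lost and 4 turned.

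Over all genes, calls between vemurafenib and DMSO numbered 1154, and 43 without the trend, 443 with the mean of probe sets, 657 without a filter and 431 and 1793 at thresholds of 0.01 and 0.1. Between the compounds they numbered 1443, and 35, 660, 616 at 0.01 and 900 without vemurafenib replicate 1. Between PLX7904 and DMSO there were 0, and up to 29 without vemurafenib replicate 1. Over probe sets, calls numbered 1413 between vemurafenib and DMSO (743 without a filter, 0 without the trend, 416 and 2396 at 0.01 and 0.1), and 1812 between the compounds (1099, 0, 638 and 2842, and 1042 without PLX7904 replicate 2). Median centring moved the median log2 difference of all genes to 0.10, against -0.05, with vemurafenib over DMSO, and to 0.11, against -0.04, between the compounds. It raised the share of calls that were higher to 77.7%, against 51.0%, and to 80.0%, against 48.4%. Signal over background is unknown without detection calls, which limits Btc most.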

Other observations

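Ereg and Btc lie in one run of EGF family genes on mouse chromosome 5, in the order Epgn, Ereg, Areg and Btc in the GRCm38.p6 annotation, where Epgn was below the filter and Areg was not analysed here. Mthfd2l, next to Epgn, read 0.00 on the log2 scale between vemurafenib and DMSO (SE 0.12), and beyond it the chemokine gene Cxcl2 was called, at 0.77 (adjusted p = 7.90e-05). On the other side of Btc, Parm1 was at -0.22 (adjusted p = 0.556) and Rchy1 at 0.22 (adjusted p = 0.133), neither called. Between vemurafenib and PLX7904 Cxcl2 was also called, at 0.51 (adjusted p = 0.000191), and Mthfd2l was at -0.08. These neighbours were chosen after the values of the family were seen.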
